A study of Homo sapiens with 12 samples.

Results

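The RNAs captured with biotinylated miR-199a-5p were set against the RNA of the cells they came from, on 6 of the 12 arrays of the series. The 3 pull-down arrays and the 3 input arrays were those titled with this microRNA, and no measured value entered the choice. The cells were HEK293T, an established human embryonic kidney line with the SV40 large T antigen, and received 200 pmol of a synthetic biotinylated miR-199a-5p duplex with the lipid reagent HiPerFect and were lysed 24 hours later. Streptavidin beads then captured the biotinylated microRNA with the RNA bound to it. The input arrays held total RNA of cells given the same duplex, so the duplex itself is shared by both groups and no array of untransfected cells enters the comparison. The other 6 arrays of the series hold the same pair of groups for miR-424-3p. They serve the comparison of the 2 enrichments, and they also shared the fit and the choice of probe.

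A microRNA is loaded into an Argonaute protein, which it guides to messenger RNAs with complementary stretches, usually in the 3′ untranslated region and most often through the bases near its 5′ end called the seed. The bound messages are translated less or decay faster through TNRC6 adaptors and the deadenylases they recruit. miR-199a-5p is best known from mesenchymal, cardiac and smooth muscle cells, where hypoxia signalling and caveolar uptake are among the processes it has been linked to. The model has limits: a single transformed line was used, the microRNA was supplied as a synthetic duplex, and beads can hold RNA for other reasons than a bound microRNA, which these arrays do not tell apart.

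The mature microRNAs are shown because the seed is the part expected to choose targets, and both differ in it. Capitals mark the seed, bases 2 to 8 counted from the 5′ end. Both come from RefSeq on GRCh38.p14. The miR-199a-5p sequence is encoded by MIR199A2 at chr1:172144592-172144614 and by MIR199A1 at chr19:10817469-10817491, and miR-424-3p by MIR424 at chrX:134546644-134546664, all on the minus strand.
hsa-miR-199a-5p: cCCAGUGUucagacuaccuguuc
hsa-miR-424-3p: cAAAACGUgaggcgcugcuau
A message that pairs with the whole miR-199a-5p seed holds ACACUGG, and one that pairs with that of miR-424-3p holds ACGUUUU. Transcript sequences were not used here, so no gene below is called a seed match.

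The values were the deposited normalized log2 signals of 15329 probes on an Illumina HT-12 BeadChip, with array medians from 9.155 to 9.208 for the 6 arrays. Because arrays were brought to a common distribution, a value is a probe's level relative to the bulk of probes on the same array, and a rise or fall is read against that bulk. Pull-downs correlated with one another at r = 0.983 to 0.992 across probes, inputs at 0.988 to 0.994, and pull-downs with inputs at 0.928 to 0.950. The median SD of a gene was 0.11 among the 3 inputs and 0.14 among the 3 pull-downs. A legend of the study describes the replicates as independent, whereas the labels do not say whether they came from separate cultures, so p-values measure the spread between these samples. The 11 measured markers of the kidney line were uneven in the inputs, with a median level of 8.84. The brightest were VIM, the intermediate filament vimentin, at 13.77, 13.79 and 13.88, and the neuronal cadherin CDH2 at 11.90, 11.91 and 12.08. GATA3 had an input mean of only 7.89. Of the fibroblast markers 4 were measured, with input means of 7.85 to 7.99, at the lower edge of the scale, and the 1 measured blood marker, HBA2, stood at 8.04.

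Each gene entered with its brightest probe, and a gene was called when limma's one-sided moderated test gave an adjusted p under 0.05. Among 9647 genes, 2889 (29.9%) were higher in the pull-down and 1941 (20.1%) lower. With the 6 miR-199a-5p arrays alone in the fit, 2654 were higher and 1782 lower. Over probes the shares were 25.6% higher and 25.9% lower. With calls this common, a gene family is described below by how many of its members were called each way, to be read against those shares, and by its median log2 fold change, to be read against 0.06 for all genes. Changes of at least 1 log2 unit, or 2-fold, were made by 289 of the higher and 202 of the lower genes, and 1291 and 947 moved by less than 0.5. The 3 pull-down arrays lay wholly beyond the 3 input arrays in 2736 of the higher and 1855 of the lower genes.

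The share of genes called lower was larger among those with a bright input signal. In 5 equal bins by input signal, the share of genes called lower went from 8.6% in the dimmest (7.67 to 8.28) through 17.9%, 18.1% and 22% to 34% in the brightest (10.91 to 14.94). The share called higher was 22.6% in the dimmest bin, 36.1% in the middle bin and 25.3% in the brightest. The deposited transformation compresses dim signals. By RefSeq gene type, 30.5% of 9276 protein-coding genes were higher and 19.9% lower, whereas of 72 small nucleolar RNAs 5.56% were higher and 43.1% lower. How far signal takes part in the differences between lists was not tested.

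**Figure D1:**
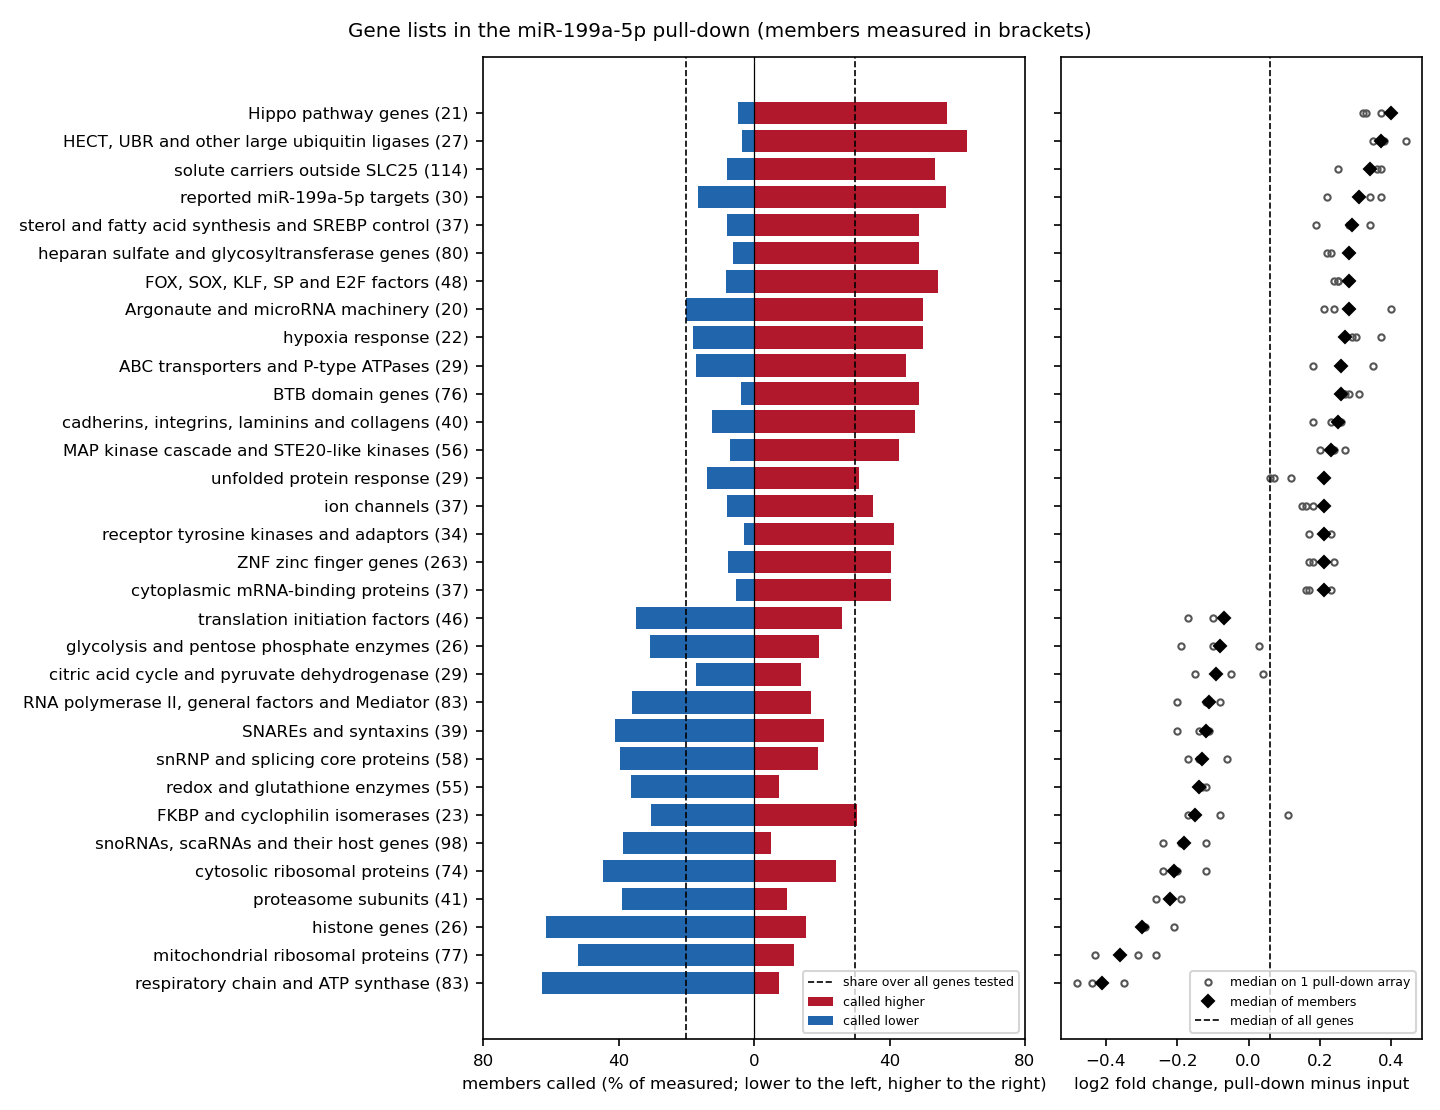
Gene lists reported here with at least 20 measured genes, the 18 with the highest and the 14 with the lowest medians. Bars on the left give the percent of members called higher (red) or lower (blue) with dashed lines at the shares over all genes, and on the right diamonds give the median log2 fold change of the members, open circles the median on each pull-down array against the mean input, and the dashed line the median of all genes, 0.06. The respiratory chain stands lowest at a median of -0.41 and the Hippo pathway highest at 0.40.

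Among the proteins that make, load and use microRNAs, 20 genes were measured, of which 10 rose and 4 fell, with a median of 0.28. Without 1 array 8 to 10 stayed higher and 2 to 3 lower, 2 of them without pull-down replicate 2 or input replicate 1. AGO2, the Argonaute that cleaves perfectly paired targets, stood at 10.77, 10.62 and 10.30 in the inputs and at 12.27, 12.35 and 12.25 in the pull-downs. Those groups were more than 1 log2 unit apart, and the fold change was 1.73 ± 0.15 (± SE, n = 3 arrays a group, adjusted p = 1.93e-06). AGO1 rose by 0.49 ± 0.09, and AGO3 gave 0.17 ± 0.08 with no call. Both measured TNRC6 scaffolds, which link Argonaute to deadenylation, were higher: TNRC6B by 0.82 ± 0.11 and TNRC6A by 0.42 ± 0.14, a call lost without input replicates 1 or 3 or pull-down replicate 3 (0.28, adjusted p = 0.0978). XPO5, which exports microRNA precursors from the nucleus, rose by 0.95 ± 0.14, and LIN28B, a repressor of let-7 processing, by 0.92 ± 0.12.

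The enzymes that cut microRNA precursors were not called higher on their brightest probes. DROSHA, the nuclear RNase that cuts primary transcripts, fell by 0.23 on the log2 scale, a call lost in 5 of the 6 fits without 1 array (without pull-down replicate 3, -0.19, adjusted p = 0.088). DICER1 gave -0.22 ± 0.12 without a call, while its dimmer probe was called higher at 0.92. TARBP2, a partner of Dicer, fell by 0.47, a call that was lost without input replicate 1 (-0.37, adjusted p = 0.0865) and without pull-down replicates 1 or 2. Both subunits of the C3PO nuclease, which clears passenger strands, were called, in opposite directions. TSN rose by 0.89 ± 0.09, while the brightest probe of TSNAX fell from 10.73, 10.89 and 10.98 to 8.95, 8.95 and 8.77, a change of -1.97 ± 0.12 (adjusted p = 3.96e-08). Another TSNAX probe went the other way, as described with the probe comparison.

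Among 30 measured genes reported as miR-199a-5p targets, a list assembled from general knowledge with earlier results of these data known, 17 were higher and 5 lower (median 0.31). Without 1 array 14 to 16 stayed higher and 3 to 5 lower, 3 of them without pull-down replicate 3 or input replicate 2. MTOR, the nutrient-sensing kinase, rose by 1.28 ± 0.25 (adjusted p = 8.45e-04), with pull-downs at 13.22, 11.94 and 12.13, and by 0.89 without pull-down replicate 1, still called. PODXL, a sialomucin of podocytes, rose by 1.04 ± 0.16, MAP3K11 by 1.01 ± 0.10, E2F3 by 0.99 ± 0.15 and HIF1A, the oxygen-regulated factor, by 0.98 ± 0.14, although a dimmer HIF1A probe was called lower at -0.71. GSK3B rose by 0.93 ± 0.11 and CLTC, the clathrin heavy chain, by 0.85 ± 0.17, and the Wnt receptors FZD4 and FZD6 by 0.74 ± 0.11 and 0.48 ± 0.10. The deacetylase SIRT1 rose by 0.61 ± 0.13 and the receptor MET by 0.56 ± 0.10.

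The other called members of that list were lower. RAB5A, the early endosome GTPase, fell by 0.81 on the log2 scale (adjusted p = 8.37e-06), STMN1 by 0.62 and ATF6 by 0.53. The caveolins CAV1 and CAV2 gave -0.28 ± 0.10 and -0.38 ± 0.14, both called lower. CAV1 lost its call without input replicates 1 or 2 or pull-down replicate 3 (-0.23, adjusted p = 0.0915), and CAV2 without input replicates 2 or 3 or pull-down replicates 1 or 3 (-0.22, adjusted p = 0.145). SMAD4 (-0.07 ± 0.12), JAG1 (0.15 ± 0.07) and IKBKB (0.10 ± 0.12) were not called. In the miR-424-3p pull-down 10 of the 30 listed genes were higher and 6 lower, and the enrichments are compared below.

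Carriers of small solutes made up one of the most enriched groups: of 114 measured SLC genes outside the mitochondrial SLC25 family, 61 were higher and 9 lower, with a median of 0.34. Without pull-down replicate 1 or input replicate 3 the lower members were 4. Amino acid carriers were among the higher genes. Of 18 measured, grouped after their values were seen, 16 were higher and none lower, with a median of 0.73. SLC7A1, the carrier of arginine and lysine, stood at 10.64, 10.43 and 10.38 in the inputs and at 11.83, 11.70 and 11.91 in the pull-downs, a change of 1.33 ± 0.10 (adjusted p = 5.46e-07). SLC38A1, a sodium-coupled carrier of glutamine, went from 10.75, 10.74 and 10.68 to 11.99, 12.01 and 12.05 (1.29 ± 0.09, adjusted p = 3.70e-07). In both genes the arrays of a group lay within about 0.3 of each other and the groups more than 1 log2 unit apart.

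SLC7A5, the light chain of the large neutral amino acid carrier, went from 10.90, 10.58 and 10.24 to 11.85, 11.54 and 11.66 (1.11 ± 0.16). Its heavy chain SLC3A2 went from 10.44, 10.13 and 10.14 to 10.71, 10.49 and 11.05 (0.51 ± 0.15), and a dimmer SLC3A2 probe was called lower at -0.23. The other leading members were SLC38A2 at 1.04 ± 0.17, the arginine carrier SLC7A2 at 1.02 ± 0.13, SLC38A10 at 0.81 ± 0.15, the lysosomal carrier SLC36A1 at 0.76 ± 0.13, SLC7A6 at 0.79 ± 0.11 and SLC6A15 at 0.77 ± 0.11. The 2 members without a call were SLC38A6 (0.22 ± 0.11) and SLC38A5 (-0.14 ± 0.09), the latter at 7.84, 8.04 and 7.86 in the inputs, near the floor of the scale. Leaving out 1 array removed the calls of SLC1A5 and SLC3A2 (input replicate 2 or pull-down replicate 3), SLC38A12 (input or pull-down replicate 3) and SLC38A9 (replicates 1 or 2 of either group), all among the smallest changes, and 13 to 16 members stayed called.

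Other carriers were more mixed. The glucose carriers SLC2A8 and SLC2A3 rose by 1.18 ± 0.13 and 1.01 ± 0.13, and SLC2A1, the carrier of most cells, by 0.27 ± 0.10, which lost its call without any 1 of 5 arrays, all but input replicate 1. Of 18 SLC35 genes, the family that holds the nucleotide sugar carriers of the Golgi, 10 were higher and 1 lower (median 0.30), with 6 to 9 higher without 1 array (6 without input replicate 3) and 0 to 2 lower. Zinc carriers of the SLC30 and SLC39 families were higher in 7 and lower in 3 of 15 (1 lower without replicates 1 of either group, pull-down replicate 2 or input replicate 3), and SLC39A6 fell by 1.09, the largest fall among solute carriers. ATP9A, a phospholipid flippase, led the ATP-driven pumps at 1.12 ± 0.10, and 13 of 29 ABC transporters and P-type ATPases were higher and 5 lower.

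**Figure D2:**
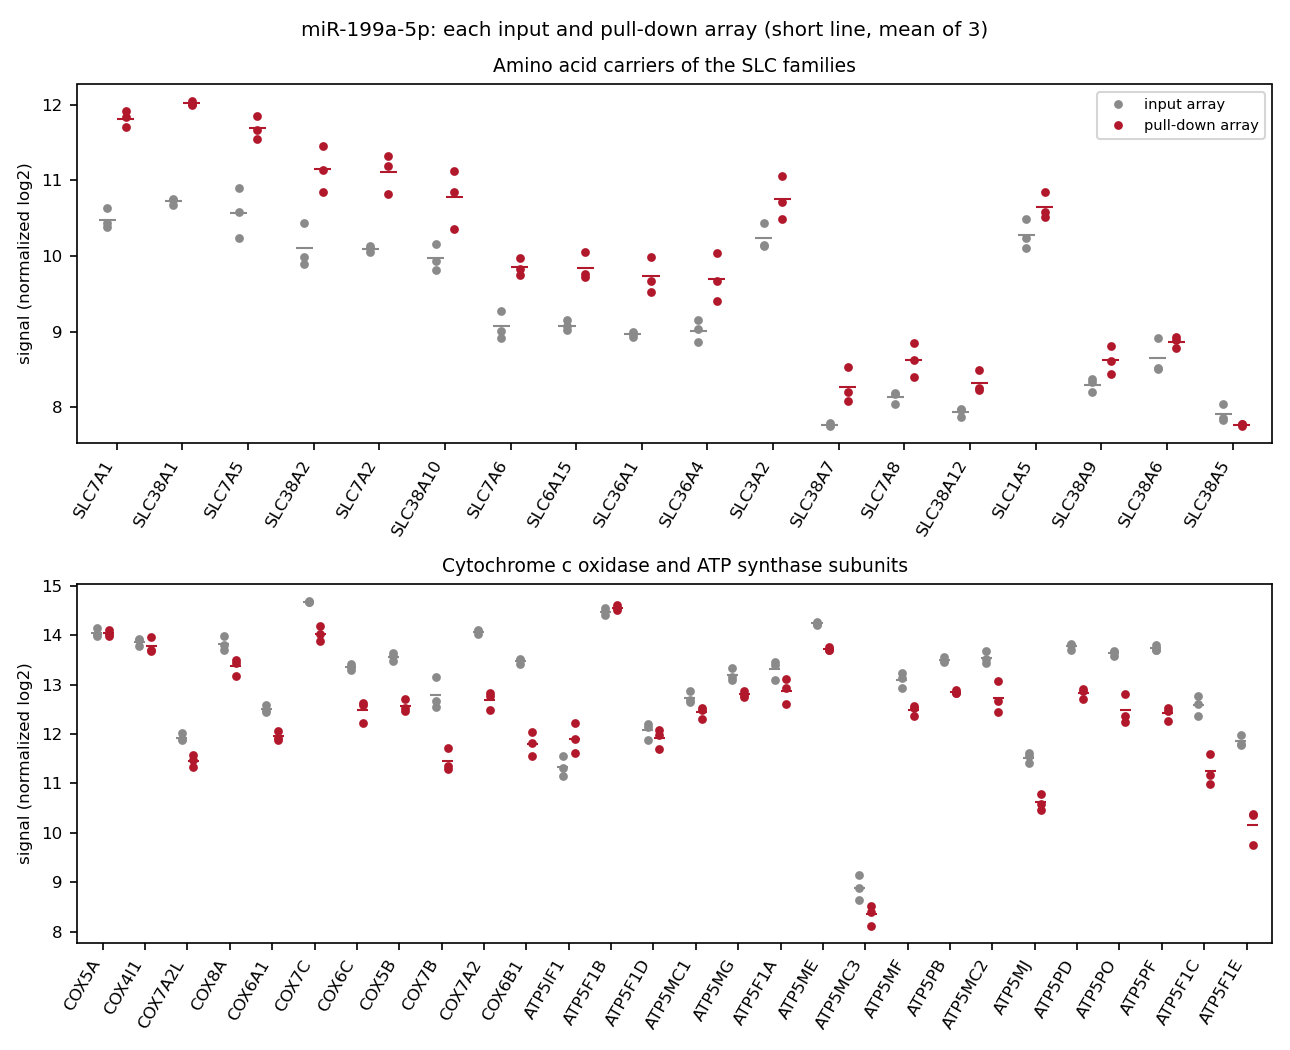
Normalized log2 signal of each amino acid carrier (top) and each cytochrome c oxidase and ATP synthase subunit (bottom) on the 3 input arrays (grey) and 3 pull-down arrays (red), with short lines at the means. Of the carriers 16 of 18 were called higher in the pull-down, and 9 of 11 oxidase and 14 of 17 synthase genes were called lower.

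Enzymes that build glycans were enriched along with their sugar carriers: 39 of 80 measured heparan sulfate and glycosyltransferase genes were higher and 5 lower (median 0.28). Among 10 enzymes of the heparan sulfate chain 6 were higher and none lower, the largest rise being that of HS3ST3A1 at 1.95. GLCE, which turns glucuronic into iduronic acid, went from 8.95, 9.26 and 9.18 to 9.95, 9.99 and 10.36 (0.97 ± 0.13, adjusted p = 3.52e-05). HS2ST1, the 2-O-sulfotransferase, went from 8.42, 8.45 and 8.45 to 9.17, 9.25 and 9.47 (0.86 ± 0.09), and EXTL3, which starts the chain, rose by 0.88 ± 0.15. These increases left no overlap between the groups. The polymerases that extend the chain, EXT1 and EXT2, gave 0.08 ± 0.15 and 0.05 ± 0.17 with no call and with signs that turned without 1 array. XYLT2, which adds the first sugar, gave 0.33 ± 0.11 and lost its call without input replicate 3 (0.25, adjusted p = 0.0852) or pull-down replicate 3.

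Mucin-type glycosylation was represented by the polypeptide GalNAc transferases, with 6 of 9 genes higher and none lower, led by GALNT11 at 0.74 ± 0.12. UGCG, which makes glucosylceramide, rose by 1.32 ± 0.12 and B4GALT1 by 1.10 ± 0.18. Of the list's lower members ALG14 and ALG11, which help to assemble the N-glycan precursor, gave -0.93 ± 0.10 and -0.39 ± 0.08. Of 44 genes of endoplasmic reticulum translocation and glycan transfer, 9 were higher and 15 lower. RPN2 and SEC61A1, a subunit of the oligosaccharyltransferase and the translocation pore, rose by 1.09 ± 0.15 and 1.02 ± 0.10, whereas SRP14 fell by 1.55 and DAD1 by 0.88.

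Cell adhesion genes leaned higher too: of 40 in the list of cadherins, integrins, laminins and collagens 19 were higher and 5 lower (median 0.25), the latter 3 without pull-down replicates 1 or 3 or input replicates 1 or 2. CDH2 led, from 11.90, 11.91 and 12.08 to 13.48, 13.29 and 13.17 (1.35 ± 0.11), followed by the desmosomal cadherin DSC2 (1.05 ± 0.10) and the giant cadherin FAT1 (0.89 ± 0.14). Among the lower members ITGB3BP and ITGB1BP1 are binding proteins rather than integrins, so on brightest probes ITGAE at -0.63 ± 0.10 was the integrin with the largest fall. A dimmer probe of the integrin ITGB1 was called lower at -1.46, while its brightest read 0.64. VIM, by contrast, fell from 13.77, 13.79 and 13.88 to 12.51, 12.70 and 12.11 (-1.37 ± 0.12), and 7 of the 11 measured markers of the kidney line were lower, among them VIM, while CDH2 was the 1 higher (2 were higher without pull-down replicate 1).

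Lipid synthesis genes leaned higher, with more calls among fatty acid than sterol enzymes. Of 16 genes of fatty acid synthesis and elongation 11 were higher and 1 lower (median 0.39), the latter call kept in the fit without pull-down replicate 3 and in no other fit without 1 array. ACACB, the acetyl-CoA carboxylase of the mitochondrial surface, went from 8.08, 8.12 and 7.96 to 8.93, 8.92 and 9.44 (1.04 ± 0.13, adjusted p = 2.50e-05). The elongases ELOVL5 and ELOVL4 rose by 0.67 ± 0.15 and 0.63 ± 0.14, and ACSL4, which activates arachidonate, by 0.59 ± 0.14. FASN, the fatty acid synthase, read 13.04, 13.39 and 12.88 in the inputs and 14.76, 13.36 and 13.67 in the pull-downs. The second pull-down array lay below one input, and the change of 0.83 ± 0.27 lost its call without pull-down replicate 1 (0.41, adjusted p = 0.0613) or without input replicate 3 (0.72, adjusted p = 0.0669). ACLY rose by 0.42 ± 0.12, while its other probe read -0.76.

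Among 16 cholesterol enzymes 5 were higher and none lower (median 0.21): CYP51A1, the lanosterol demethylase, by 1.13 ± 0.09, HSD17B7 by 0.98 ± 0.12, HMGCS1 by 0.74 ± 0.14, NSDHL by 0.50 ± 0.10 and MSMO1 by 0.33 ± 0.11. MSMO1 lost its call in 4 of the 6 fits without 1 array. INSIG1, which holds the sterol sensor in the endoplasmic reticulum, fell by 0.72.

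Biotin-dependent carboxylases and the biotin ligase bear on a streptavidin capture, so the whole list is given. Of 8 measured genes 4 were higher and 3 lower. ACACA, at 3.18 ± 0.26, is among the largest enrichments of all, and ACACB, pyruvate carboxylase (PC, 0.61 ± 0.09) and the biotin ligase HLCS (0.50 ± 0.08) were also higher. Both subunits of methylcrotonyl-CoA carboxylase were lower, MCCC2 at -0.77 ± 0.16 and MCCC1 at -0.41 ± 0.09, as was PCCB at -0.31 ± 0.12, while PCCA gave 0.30 ± 0.12 without a call. The PCCB call was lost in 5 of the 6 fits without 1 array. The list therefore had no single direction. Not all of its members carry biotin: MCCC2 and PCCB are the subunits without it, and HLCS is the ligase. Of the genes for biotin-bearing proteins, ACACA, ACACB and PC were higher, MCCC1 was lower and PCCA was not called.

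The respiratory chain showed the opposite picture to the carriers, with 52 of 83 measured genes lower and 6 higher. It was described complex by complex. Cytochrome c oxidase, complex IV, had 9 of 11 subunits lower and none higher (median -0.65). COX6B1 stood at 13.49, 13.52 and 13.41 in the inputs and at 11.82, 12.04 and 11.55 in the pull-downs (-1.67 ± 0.13, adjusted p = 2.47e-07). COX7A2 went from 14.08, 14.03 and 14.10 to 12.77, 12.84 and 12.48 (-1.38 ± 0.12), and COX7B from 12.55, 12.66 and 13.16 to 11.36, 11.71 and 11.30 (-1.34 ± 0.16). The inputs of these 3 genes lay at least 0.8 above the highest pull-down.

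Within the same complex COX4I1 (-0.08 ± 0.11) and COX5A (-0.02 ± 0.10) were not called, with inputs of 13.79 to 14.15 and pull-downs of 13.69 to 14.10. In both the groups overlapped, and their signs turned under other scalings. The number of subunits called lower stayed 9 without any 1 array.

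ATP synthase, complex V, had 14 of 17 genes lower and 1 higher (median -0.61). ATP5F1E, the epsilon subunit, went from 11.78, 11.99 and 11.80 to 10.36, 10.38 and 9.75 (-1.70 ± 0.15). ATP5F1C, the gamma subunit, fell by 1.33, ATP5PF by 1.32 and ATP5PO by 1.17. ATP5F1B, the catalytic beta subunit, was at 14.41, 14.55 and 14.49 and at 14.51, 14.62 and 14.56 (0.08 ± 0.10, no call). The higher member was ATP5IF1, the inhibitor of the enzyme, at 0.58 ± 0.15, although its other probe was called lower at -0.48. Without 1 array 12 to 14 genes stayed lower, ATP5F1A and ATP5MC1 being those that lost the call (ATP5F1A without pull-down replicate 1, -0.29, adjusted p = 0.136, or input replicates 2 or 3, and ATP5MC1 without pull-down replicate 1 or input replicate 2).

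Complex III had 6 of 9 genes lower and 1 higher, UQCRH falling by 1.00 and UQCR10 by 0.99 while UQCR11 rose by 0.76. Complex I, the largest, was less uniform, with 17 of 32 lower and 3 higher (median -0.34). NDUFA12, an accessory subunit, went from 12.60, 12.60 and 12.67 to 11.36, 11.46 and 11.37 (-1.23 ± 0.09), NDUFA1 fell by 0.97 and NDUFV2 by 0.96. NDUFS1, the largest subunit of the matrix arm, rose from 7.99, 7.94 and 7.94 to 8.67, 8.66 and 8.61 (0.69 ± 0.09). Of the lower members NDUFA3, NDUFA7, NDUFA8, NDUFA9 and NDUFA13 lost their calls without pull-down replicate 1, and each without at least 1 other array. NDUFS7, a higher member, lost its call without input replicate 3 or pull-down replicates 2 or 3. In complex II, whose 3 measured genes are the smallest set, 1 was higher and none lower. The higher gene was SDHA, at 0.55 on its brightest probe, while its other probe was called lower at -0.94.

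Mitochondrial carriers and import genes stood apart from the chain they serve, with 17 of 74 higher and 14 lower. SLC25A13, the aspartate and glutamate carrier, went from 10.54, 10.86 and 10.99 to 12.61, 12.34 and 12.13 (1.57 ± 0.13), SLC25A51, which imports NAD, rose by 1.53 ± 0.17 and the iron importer SLC25A37 by 1.42 ± 0.15. The dimmer SLC25A51 probe read -0.24 without a call. The small import subunits TOMM5 and TIMM9 fell by 1.39 and 1.20. Redox enzymes leaned lower, 20 of 55 against 4 higher (2 without input replicate 3), led by PRDX3, the mitochondrial peroxiredoxin, which went from 12.63, 12.68 and 13.10 to 10.80, 11.08 and 10.63 (-1.97 ± 0.20), and GLRX3 at -1.57 ± 0.16.

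Ribosomes were depleted unevenly. In the mitochondrial ribosome 27 of 48 large-subunit genes were lower and 3 higher (median -0.37), and in its small subunit 12 of 28 lower and 6 higher (median -0.20). MRPL39 was lower by 1.62 and MRPS33 by 1.68, whereas MRPS18A went from 9.63 on each input to 11.18, 11.01 and 11.61 (1.63 ± 0.12), and MRPL19 rose by 1.31 ± 0.13. In the cytosolic ribosome 20 of 45 large-subunit genes were lower and 12 higher, with a median of -0.07. Under quantile normalization 4 of them were higher, and the median was -0.25 with the mean of a gene's probes or with probes of a mean of at least 9. In the small subunit 12 of 26 genes were lower and 6 higher (3 under quantile normalization), with a median of -0.28. RPL26 fell by 1.83, RPL34 by 1.76 and RPL29 by 1.72, while RPL7A rose by 0.79 ± 0.14 and RPL38 by 0.65 ± 0.09. Ribosomal protein genes have many processed copies in the genome, and how far probes shared their signal with copies was not tested.

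Of the initiation factors 12 of 46 were higher and 16 lower. The eIF3 complex, which brings the small subunit to the message, had 6 of 13 subunits lower and 2 higher, the latter 1 without pull-down replicate 2 or input replicates 1 or 2. EIF3M went from 12.08, 11.98 and 12.32 to 10.41, 10.42 and 10.09 (-1.81 ± 0.13, adjusted p = 1.73e-07), and EIF3F, EIF3H and EIF3K fell by 0.93, 0.66 and 0.66. EIF3E rose by 0.49 ± 0.12. The cap-binding factor EIF4E rose by 0.88 ± 0.13 and EIF5A by 1.15 ± 0.15. Of the EEF1 elongation complex EEF1G fell by 1.28, while EEF1B2 rose by 0.75 ± 0.12 on its brightest probe, with its other probes at 0.45, -0.51 and -0.69, all called.

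The large ubiquitin ligases and the proteasome they feed went opposite ways. Of 27 HECT, UBR and other large ligases 17 were higher and 1 lower (median 0.37). HERC1 went from 8.79, 8.98 and 8.93 to 11.12, 10.09 and 10.24 (1.58 ± 0.20), and UBR4 rose by 1.42 ± 0.16, with ARIH1 the lower member at -0.83 ± 0.16. Pull-down replicate 1 lay well above the other pull-downs for HERC1, as it did for MTOR, MED12, DYNC2H1, DYNC1H1 and ZZEF1. Of 41 proteasome genes 16 were lower and 4 higher. Among 6 alpha subunits of its core 3 were lower, PSMA3 by 0.98, PSMA1 by 0.86 and PSMA5 by 0.73. PSMC6 of the base fell by 0.93 and PSME1, an interferon-inducible activator, by 1.27. PSMB1 was the exception among core subunits, at 1.02 ± 0.08.

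Between these ends stood the rest of protein quality control. Deubiquitinases were higher in 18 and lower in 9 of 45, with USP49 at 1.30 ± 0.12 and USP22 at -1.16 ± 0.20. F-box and cullin genes divided evenly, 17 higher and 18 lower of 66, with FBXW11, a receptor of the beta-catenin destruction pathway, going from 11.07, 10.97 and 11.03 to 12.62, 12.46 and 12.34 (1.45 ± 0.10). Of 6 prefoldin subunits 3 were higher and none lower, PFDN1 from 11.96, 12.13 and 11.89 to 13.45, 12.93 and 13.21 (1.20 ± 0.15). The calls of PFDN4 and VBP1, the 2 smaller changes, were lost without input replicate 1 and, for VBP1, without 3 other arrays. Of the whole list of heat shock proteins, chaperonins and prefoldins 27 of 84 were higher and 17 lower. These shares, 32.1% and 20.2%, were close to the 29.9% and 20.1% over all genes. Within the list HSPA6 and DNAJB1 fell by 1.18 and 0.98.

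Lists of transcription regulators held more higher than lower genes, as did all genes, and that of polymerase II and Mediator more lower than higher. Homeobox genes were close to all genes in the share higher (29.7% against 29.9%) and in the median (0.08 against 0.06), with 14.1% lower against 20.1%. BTB domain genes, many of them substrate adaptors of cullin ligases or repressors, were higher in 37 and lower in 3 of 76 (5 without pull-down replicate 3), with KLHL8 at 1.19 ± 0.10 and KEAP1, the sensor of oxidants, at -0.83 ± 0.12. FOX, SOX, KLF, SP and E2F factors were higher in 26 and lower in 4 of 48: SP3 rose by 1.19 ± 0.14 and E2F4 by 0.97 ± 0.14, whereas E2F5 went from 10.84, 10.80 and 11.01 to 9.71, 9.86 and 9.33 (-1.25 ± 0.15). Nuclear receptors and their coregulators were higher in 10 and lower in none of 25, or in 6 to 8 without 1 array (6 without pull-down replicate 2 or input replicate 2), with 1 lower without input replicate 1. Among them were RXRA, at 1.08 ± 0.13, and PPARGC1B, at 1.03 ± 0.12. ZNF genes numbered 263, of which 106 were higher and 20 lower, ZNF652 leading at 1.44 ± 0.16 and ZNF148 next at 1.35 ± 0.14.

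Mediator, which links such factors to the polymerase, split evenly, 7 of 23 subunits higher and 7 lower. MED12 of its kinase module went from 8.47, 8.54 and 8.31 to 10.64, 9.53 and 9.81 (1.55 ± 0.20) and MED1 rose by 1.02 ± 0.10, while MED27 fell by 1.12. Of 16 polymerase II subunits 4 were lower and 1 higher, the latter 3 without pull-down replicate 2 and 0 without pull-down replicate 3. TCEA1, the elongation factor that rescues backtracked polymerase, went from 10.59, 10.78 and 10.79 to 8.88, 8.87 and 8.48 (-1.98 ± 0.13).

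Histone genes were lower in 16 and higher in 4 of 26, and without 1 array 11 to 13 were lower and 4 to 5 higher. Among the H2A genes, 7 of 11 were lower: H2AX, the variant marked at DNA breaks, went from 11.35, 11.11 and 11.27 to 9.94, 10.32 and 10.19 (-1.09 ± 0.16), H2AC18 fell by 1.04, and H2AZ1 fell from 14.45, 14.36 and 14.44 to 13.93, 13.99 and 13.83. The variants H2AZ2 and MACROH2A2 rose by 0.42 ± 0.08 and 0.48 ± 0.12, so the family held both directions. H2A genes of the clusters are near-identical copies, and their probes may share signal. Chromatin remodellers and histone acetylases went the other way in their counts, 17 higher against 7 lower of 43 and 11 against 3 of 32, with INO80D at 1.13 ± 0.10 and the small subunit INO80E at -1.23 ± 0.12.

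The splicing core held more lower than higher genes. Of 58 snRNP and core splicing proteins 23 were lower and 11 higher, and of 20 Sm and LSm proteins 9 were lower and 4 higher, LSM10 falling by 1.03 and LSM3 by 0.97. SNRNP35, of the minor spliceosome, was the exception with the largest rise, from 8.48, 8.13 and 8.09 to 9.93, 9.54 and 10.44 (1.73 ± 0.17). SR proteins and hnRNPs were higher in 11 (7 without pull-down replicate 3 or input replicate 1) and lower in 15 of 50, with a median of 0.00, DEAD and DEAH box helicases higher in 10 and lower in 5 of 41, and genes of Integrator and of 3′ end processing higher in 10 and lower in 7 of 29. HNRNPA1 went from 9.11, 9.34 and 9.42 to 7.64, 7.72 and 7.64 (-1.62 ± 0.14), SRSF3 fell by 1.51, and HNRNPU rose by 0.88 ± 0.16. Both large RNA decay complexes were mixed: of the exosome 5 of 10 subunits were lower and 1 higher (0 to 2 without 1 array, 0 without replicate 3 of either group and 2 without input replicate 1), EXOSC1 by -0.82 ± 0.10, whereas the CCR4-NOT deadenylase had 4 of 10 higher and 2 lower, with its scaffold CNOT1 rising from 11.57, 11.63 and 11.68 to 12.42, 12.91 and 12.47 (0.97 ± 0.14). Cytoplasmic mRNA-binding proteins were higher in 15 and lower in 2 of 37 (1 without replicate 2 of either group, 4 without pull-down replicate 3), among them LARP4 (1.42 ± 0.10) and the stress granule factor G3BP1 (1.01 ± 0.16, with a dimmer probe called lower at -0.71).

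Small nucleolar RNAs, which guide the modification of ribosomal RNA, were lower in the C/D box class in 21 of 34 and higher in 2 (median -0.30), and in the H/ACA class lower in 10 and higher in 2 of 38 (median -0.11), with 1 higher in every fit without 1 array but that without pull-down replicate 3. SNORD96A fell by 1.5 and SNORA18 by 1.08. Their input signals were low, with a median of 8.17, and with only probes of a mean of at least 9 the number of C/D members called lower was 2, as few of them reach it. Among host genes, ZFAS1 went from 11.99, 11.92 and 11.71 to 10.56, 10.33 and 10.14 (-1.53 ± 0.12) and SNHG5 from 13.48, 13.60 and 13.80 to 12.23, 12.58 and 12.49 (-1.19 ± 0.14), while 9 of the 14 were not called. RN7SL1, the RNA of the signal recognition particle, rose by 0.78 ± 0.10, and of 66 long intergenic and antisense RNAs 14 were higher and 10 lower, led by PAXIP1-DT (1.37 ± 0.13) and LINC01018 (1.30 ± 0.17).

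The dynein motor, which carries cargo towards the centre of the cell, held both directions. Of 13 subunits of cytoplasmic and intraflagellar dynein 4 were higher and 7 lower. Both measured heavy chains rose, DYNC2H1 from 9.55, 9.90 and 9.96 to 11.90, 11.03 and 11.06 (1.53 ± 0.19) and DYNC1H1 from 9.87, 10.02 and 10.25 to 11.75, 10.93 and 10.80 (1.12 ± 0.20). Several light chains fell: DYNLT1 by 1.15 to 10.93, 11.12 and 10.93, DYNLRB1 by 0.92 and DYNLL1 by 0.56, with DYNLL2 at 0.36 ± 0.18 not called. DYNC2LI1, a light intermediate chain, fell from 9.03, 9.20 and 9.31 to 7.97, 7.97 and 7.96. Kinesins were higher in 8 and lower in 2 of 24 (1 without pull-down or input replicates 2 or 3), KIF5C by 0.96 ± 0.09 and KIF5B by -0.94.

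Membrane traffic genes were found on both sides. SNX2, a sorting nexin of the retromer pathway, went from 10.88, 11.10 and 11.01 to 12.49, 12.55 and 12.75 (1.60 ± 0.13), and VPS35, the retromer core, rose by 1.42 ± 0.18. The coat subunits SEC24C and SEC24A rose by 1.01 ± 0.08 and 0.94 ± 0.12, whereas the small adaptor chains AP1S1 and AP3S1 fell by 1.60 and 1.46. SNAREs, short membrane-anchored fusion proteins, were lower in 16 and higher in 8 of 39, STX8 falling by 0.94 and GOSR2 by 0.86. Importins stood at both ends, TNPO1 at 1.60 ± 0.11 and KPNA2 at -1.79 ± 0.16, and the nuclear pore proteins NUP210 and NUP188 rose by 1.23 ± 0.22 and 1.21 ± 0.20. The dimmer TNPO1 probe read 0.19 without a call, and that of KPNA2 was called higher at 0.42.

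Over all genes more were called higher than lower (29.9% and 20.1%), and in several signalling lists the margin was wider. Genes of the Hippo pathway, which restrains the YAP coactivator, were higher in 12 and lower in 1 of 21, VGLL4 at 1.10 ± 0.15 and STK4 at 1.01 ± 0.09, with the adaptor SAV1 lower by 0.62. Kinases of the MAP kinase cascade were higher in 24 and lower in 4 of 56 (1 without pull-down replicate 1 or input replicate 2), MAPKAPK3 rising by 1.09 ± 0.10 and MAPK9 falling by 0.84. Receptor tyrosine kinases and adaptors were higher in 14 and lower in 1 of 34, with 9 to 12 higher (9 without input replicate 2) and 0 to 2 lower without 1 array. Among them were FGFRL1 at 1.05 ± 0.15 and IGF2R at 0.98 ± 0.13. Of 30 TGF-beta and BMP genes 12 were higher and 2 lower (1 without pull-down replicate 3 or any input). Their median was 0.07, close to the 0.06 of all genes. The activin receptor ACVR2B stood at 1.19 ± 0.11. The ligand GDF11 gave 1.04 ± 0.09 on its brighter probe and -0.32, called lower, on the other.

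Heterotrimeric G protein subunits and RGS genes, counted in one list, were higher in 10 and lower in 10 of 32. The gamma subunits alone ranged from GNG7, which went from 8.43, 8.52 and 8.36 to 9.83, 10.04 and 10.59 (1.71 ± 0.15), to GNG10, the most depleted of the list at -2.28 ± 0.15, with GNG5 and GNG11 at -0.85 ± 0.11 and -0.81 ± 0.09. The list of PI3K, AKT and mTOR genes had 14 higher and 6 lower of 45, in which TSC1 rose by 1.27 ± 0.13 on its brightest probe, with others called at -0.35 and 0.48, and MAPKAP1, a subunit of the second mTOR complex, fell by 1.43. Of 39 Wnt genes 16 were higher and 7 lower, AMER1 rising by 0.91 ± 0.11 and DVL3 falling by 1.00. Of the 14-3-3 adaptors 3 of 6 measured proteins were lower and none higher, YWHAH by 0.44.

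The replication machinery had 10 higher and 12 lower of 49 (20.4% and 24.5%). Cohesin, condensin and kinetochore genes had 17 and 19 of 63 (27% and 30.2%). Both lists held slightly more lower than higher genes, whereas over all genes 29.9% were higher and 20.1% lower. RFC2, a subunit of the clamp loader, went from 9.70, 9.73 and 9.79 to 8.07, 8.26 and 8.07 (-1.61 ± 0.10), while a dimmer RFC2 probe read 0.15 without a call. ESPL1, the separase that cuts cohesin, rose by 1.40 ± 0.25, and among cyclins CCND1 and its partner CDK6 rose by 0.87 ± 0.16 and 0.82 ± 0.16 and CCNA2 fell by 0.97. In the stress lists, EIF2AK2, the kinase that senses double-stranded RNA, went from 10.51, 11.08 and 10.63 to 12.15, 12.18 and 12.01 (1.37 ± 0.15) and PPP1R15A rose by 1.27 ± 0.21, whereas MT1X, a metallothionein, went from 11.49, 11.54 and 11.47 to 10.06, 10.37 and 10.54 (-1.18 ± 0.14). Hypoxia genes were higher in 11 and lower in 4 of 22, VHL at 0.88 ± 0.12 on its brightest probe, with others called at -0.50 and 1.12, and EGLN1 at -0.76 ± 0.10.

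**Figure D3:**
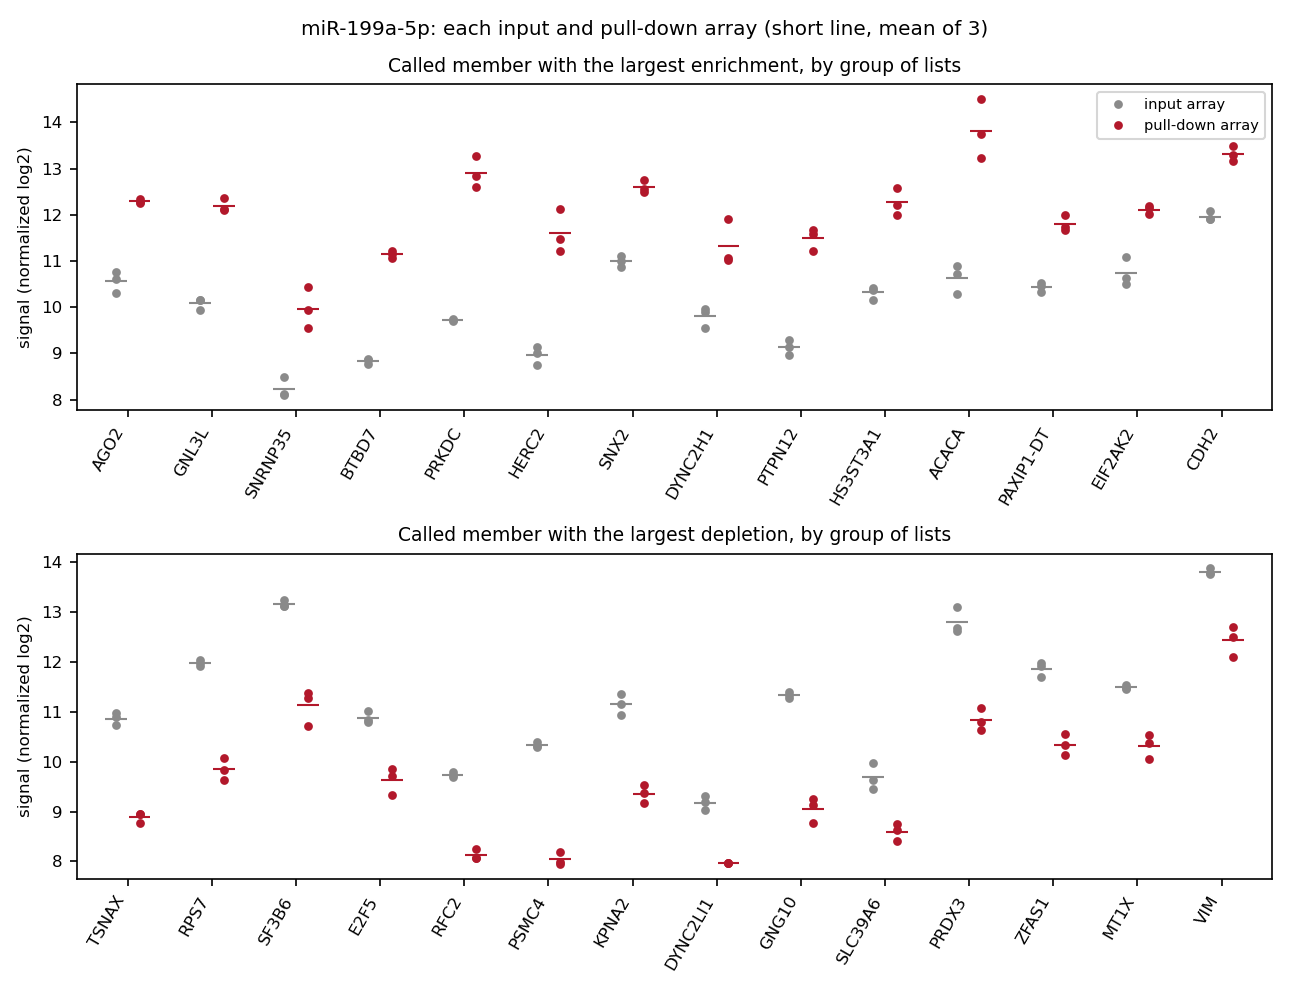
For each of 14 groups of lists, the called gene with the largest rise (top) and the largest fall (bottom), as normalized log2 signal on each input (grey) and pull-down (red) array, with short lines at the means of 3. By the rule that chose these genes, the arrays of the 2 groups do not overlap, so the plot shows sizes and spread, such as the 3 pull-down arrays of SNRNP35 from 9.54 to 10.44.

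Among genes in no family above, several ranked between the 16th and the 35th largest rise. HIPK2, a nuclear kinase of the p53 response, went from 10.02, 9.79 and 9.57 to 11.18, 11.28 and 11.46 (1.52 ± 0.13), while its dimmer probe read 0.04 without a call. SPIN1, a reader of histone methylation, rose by 1.5 ± 0.12, TOP3B, a topoisomerase of RNA and DNA, by 1.49 ± 0.14, and ZZEF1 by 1.51 ± 0.21. NLRP8 (1.60 ± 0.18), EFCAB14 (1.45 ± 0.13), GATD1 (1.49 ± 0.12) and PLEKHB2 (1.44 ± 0.17) complete them. The dimmer GATD1 probe read 0.12 without a call.

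Those ranked 9th to 28th among the falls and not yet described included APP, the amyloid precursor, which went from 9.96, 9.88 and 9.97 to 8.13, 8.33 and 8.14 (-1.74 ± 0.11, adjusted p = 5.15e-08), and PGAM1, a glycolytic enzyme, from 12.65, 12.68 and 12.95 to 10.67, 11.25 and 11.07 (-1.77 ± 0.16). MOCS2, of molybdenum cofactor synthesis, fell by 1.85 to 7.68, 7.84 and 7.59, near the floor of the scale, with its dimmer probe at 0.06. HAUS1, of the augmin complex, fell by 1.66, MAEA, a subunit of the CTLH ubiquitin ligase, by 1.65, SPG21 by 1.62 and CCZ1B, 1 of a pair of near-identical genes, by 1.67. The dimmer CCZ1B probe read -0.06 without a call.

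The choice of probe mattered for some genes. Of 2337 genes with at least 2 named probes, 196 had every probe called higher, 325 every probe lower and 477 none called, while in 457 some were higher and in 643 some lower with the rest not called. In 239 genes (10.2%) probes were called in opposite directions. UBE2G1, a ubiquitin-conjugating enzyme, had one probe at 10.11, 10.27 and 10.13 in the inputs and 10.81, 10.57 and 10.84 in the pull-downs (0.57 ± 0.10), and another of like input level at 10.07, 10.12 and 10.37 that fell to 8.51, 8.50 and 8.48 (-1.69 ± 0.10). On each probe the groups did not overlap.

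TUBA1A, an alpha tubulin, rose from 14.36, 14.45 and 14.43 to 14.66, 14.72 and 15.08 on one probe (0.41 ± 0.11) and fell from 12.69, 13.10 and 13.26 to 10.82, 11.38 and 11.26 on the other (-1.86 ± 0.18). ABLIM1, an actin-binding LIM protein, gave 1.05 ± 0.14 and -1.19 ± 0.14, and the 3 RPL6 probes gave 0.27 ± 0.09 (a call lost without input replicates 2 or 3), -0.56 ± 0.11 and -2.05 ± 0.10. For TSNAX the pair read -1.97 ± 0.12 and 0.35 ± 0.10, and for KPNA2 -1.79 ± 0.16 and 0.42 ± 0.11. These 6 were chosen after their values were seen, and where the probes lie in the transcripts was not examined.

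**Figure D4:**
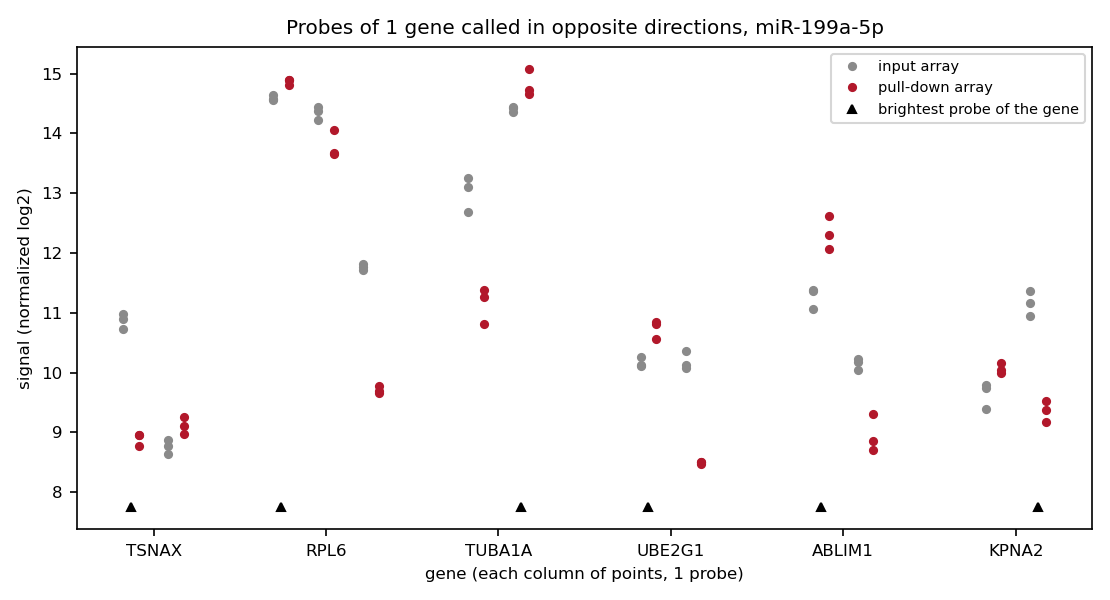
Normalized log2 signal of each probe of 6 genes whose probes were called in opposite directions, on the 3 input (grey) and 3 pull-down (red) arrays. A triangle marks the brightest probe, the one that stands for the gene elsewhere, which was lower for TSNAX and KPNA2 and higher for RPL6, TUBA1A, UBE2G1 and ABLIM1.

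The miR-424-3p arrays, processed in the same way with their own inputs and sharing no array with those of miR-199a-5p, allow the enrichments to be compared. With miR-424-3p 2926 genes were higher (30.3%) and 2477 lower (25.7%). A rise in both was found for 1361 genes, 47.1% of those higher with miR-199a-5p and 46.5% of those higher with miR-424-3p, and a fall in both for 1107 genes (57% and 44.7%). In 318 genes a rise with miR-199a-5p met a fall with miR-424-3p, and in 266 the reverse. Both pull-downs were made with the same beads from the same line, so what the beads and the duplexes each bring to the shared changes cannot be told apart.

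The difference of the 2 enrichments was tested in the same fit. It was above 0, in favour of miR-199a-5p, in 2018 genes (20.9%) and below 0 in 1744 (18.1%). The balance turned under cyclic loess (1792 above, 1905 below) and median scaling (1763 and 1928). Among the ranked genes the widest gap was that of SNX2, at 1.60 and -1.46. AGO2, at 1.73 and 1.40, gave a difference of 0.32 ± 0.22 that was not called (adjusted p = 0.256), which does not show that the enrichments are alike.

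Family by family, amino acid carriers had a median of 0.73 for miR-199a-5p against 0.19 for miR-424-3p, and pairs of values below are in that order. SLC38A1 (difference 1.13 ± 0.13), SLC7A2 (1.15 ± 0.19) and SLC6A15 (1.04 ± 0.15) were called above miR-424-3p, whereas SLC7A1 (0.35 ± 0.14) was not. Glycan enzymes had medians of 0.28 and 0.03, sterol and fatty acid genes 0.29 and -0.08, and hypoxia genes 0.27 and -0.09. The heparan sulfate enzyme HS2ST1 gave 0.86 and 0.09, and CYP51A1 1.13 and -0.18. Reported miR-199a-5p targets had medians of 0.31 and 0.08. In the difference 7 of these 30 genes were called above miR-424-3p and 3 below, against 20.9% and 18.1% of all genes. HIF1A (0.98 and 1.68) was among those below, and the MTOR difference (0.47 ± 0.36) was not called.

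In other families miR-424-3p had the larger values. The FOX, SOX, KLF, SP and E2F list had medians of 0.28 and 0.68, and 24 of its 48 genes were called below miR-424-3p in the difference and 4 above. Homeobox genes (0.08 and 0.37) had 29 of 64 below and 5 above, and Wnt genes (0.18 and 0.46) 14 of 39 below and 2 above. Nuclear non-coding RNAs showed the reverse, with medians of 0.07 and -0.70 and 14 of 20 genes above and none below.

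Of the depleted families, the respiratory chain had medians of -0.41 and -0.44 and mitochondrial ribosomal proteins -0.36 and -0.39, whereas histones had -0.30 and -0.09, ATP synthase -0.61 and -0.31 and complex III -0.60 and -0.27. Single members differed in the test. COX7B fell by 1.34 with miR-199a-5p and rose by 0.63 with miR-424-3p, a difference of -1.96 ± 0.23 (adjusted p = 1.62e-05), and ATP5MC2 read -0.81 and 1.20, a difference of -2.01 ± 0.24. COX6C lay the other way, at -0.88 and -1.88.

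**Figure D5:**
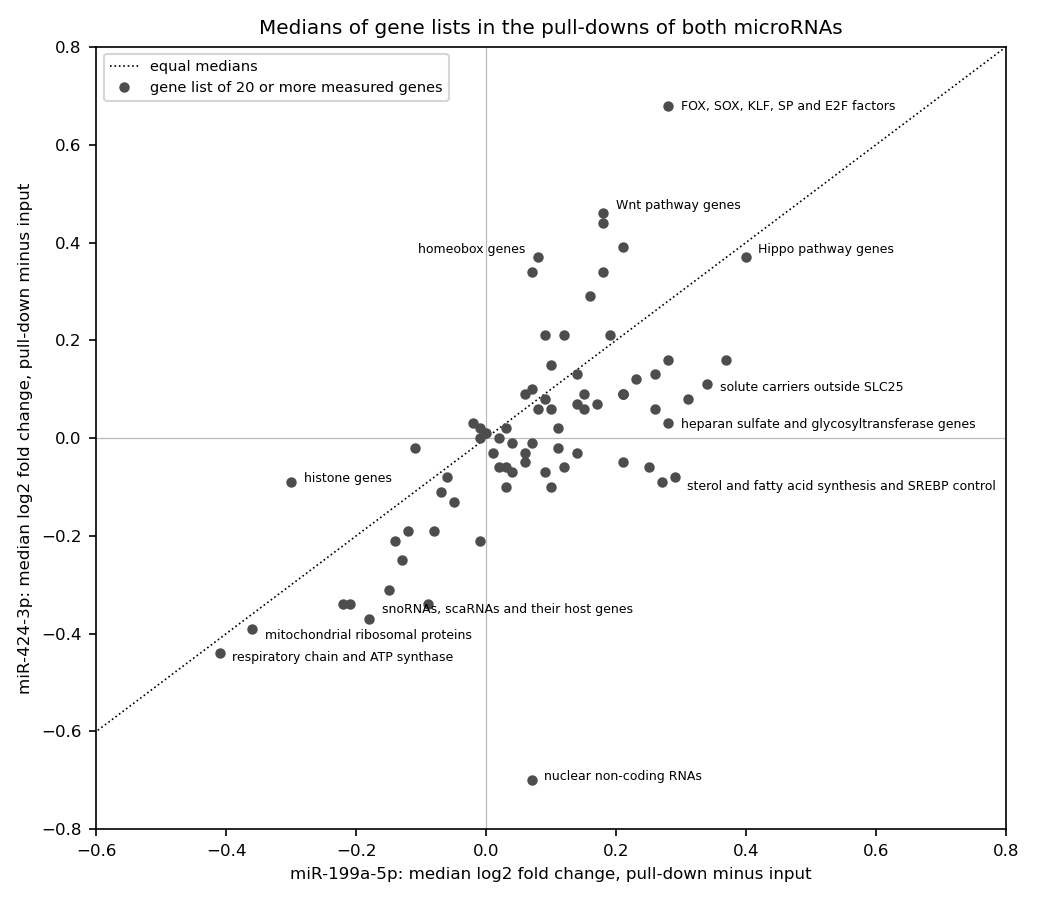
Median log2 fold change of each gene list reported here with at least 20 measured genes, with miR-199a-5p on the horizontal axis and miR-424-3p on the vertical axis, each pull-down against its own input. The dotted line marks equal medians, with glycan, lipid and solute carrier lists to its lower right and the FOX, SOX, KLF, SP and E2F list, homeobox and Wnt lists above it.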

How the data were processed

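The authors deposited normalized log2 signals for 15329 probes of 12 Illumina HT-12 arrays, made with lumi (2.2.1 in the submitters' notes) by background adjustment, variance-stabilizing transformation and robust spline normalization. The transformation compresses differences at low signal. Groups followed titles and characteristics. Where a legend in the study's supplement has miR-199b-5p, the GEO labels have miR-199a-5p, which is used here. The study's arrays of mock-transfected cells are not analysed here. A table of signals before normalization had 24 per-sample columns whose names match no label, and they were not used.

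Gene names came from GEO's annotation of the platform, in which 12432 probes had 1 symbol, 2 several and 2895 none, and 12430 were found in the RefSeq table of GRCh38.p14. Of the 2897 probes without 1 symbol, 592 were higher and 929 lower. Genes took the probe brightest over the 12 arrays. limma 3.58.1 (R 4.3.3) fitted 4 group means to 12 arrays with lmFit and eBayes (8 residual degrees of freedom), tested each tail, and adjusted by Benjamini-Hochberg over all probes. Fold changes are log2 differences ± SE, pull-down minus input. Tests were checked on simulated data. Figures used Python 3.11.15 and matplotlib 3.10.9. The number of arrays, 3 a group, limits the precision.

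The groups, the 85 gene lists in 14 themes (symbol patterns, 4016 genes in a list) and the smaller families were chosen with earlier results of these data known, and families were regrouped after values were seen. 1 list is not reported here. No set test was run. Named genes were those at ranks 16 to 35 of enrichment and 9 to 28 of depletion among calls with non-overlapping arrays, the 3 called members with the largest changes each way in a list, the leading gene each way in a theme, and members of small lists. Single members of the smaller families were chosen after their values were seen. Uncharacterised loci were passed over. Alternatives were other between-array scalings, a floor of 9 on mean signal, array weights, a replicate block, the 6 miR-199a-5p arrays alone, two-sided tests, a minimum fold of 1.5, the mean of a gene's probes and each array left out.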

Additional observations from a re-analysis of the deposited data

Results flagged for a closer look

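Of 41 genes, those ranked as in the methods plus ACACA, 25 differed between the enrichment with miR-199a-5p and that with miR-424-3p in the test of the difference (limma, one-sided, adjusted over all probes). In 17 the difference lay above 0, and in 8 below. The genes were ranked by their change on the miR-199a-5p arrays, which also enter the difference, so the count is a description. Over all genes 20.9% were called above 0 and 18.1% below.

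Among genes enriched with miR-199a-5p the difference was 3.06 ± 0.18 for SNX2 (adjusted p = 2.29e-07), 2.2 ± 0.19 for SLC25A13 (3.41e-06), 1.5 ± 0.14 for FBXW11 (5.57e-06) and 1.31 ± 0.17 for MRPS18A (9.54e-05). SNX2 and SLC25A13 fell with miR-424-3p, by 1.46 and 0.64, and FBXW11 read -0.05. Smaller differences were those of PLEKHB2 (1.29), SNRNP35 (1.26), ACACA (1.16), NLRP8 (1.09), SLC25A51 (1.05), EFCAB14 (1.02), GNG7 (0.97), HERC1 (0.97), TNPO1 (0.80), TOP3B (0.66) and GATD1 (0.49), with adjusted p from 9.77e-04 for EFCAB14 to 0.0312 for GATD1. In these genes both pull-downs gave values above 0.

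Among depleted genes KPNA2 differed by -1.76 ± 0.23 (4.88e-05), with -0.03 in the miR-424-3p pull-down, and MAEA by -1.39 ± 0.27. PRDX3 (-1.15), RPL34 (-0.84), APP (-0.84), MOCS2 (-0.81), PGAM1 (-0.71) and HNRNPA1 (-0.54) fell further with miR-199a-5p than with miR-424-3p, with adjusted p up to 0.0407 for HNRNPA1. ATP5F1E (0.91) and MRPL39 (0.59) fell further with miR-424-3p.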

How the results depend on the processing

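Of 643 genes tracked, 508 had a value in every setting, and 377 of these kept their direction and call in all. The replicate block left 642 as they were and added the call of PCCA (0.30), with 3014 genes higher and 2026 lower. The replicate numbers were not taken to pair the samples. Deviations of same-numbered pull-down and input arrays from their group means correlated at only 0.07513, 0.02073 and -0.1002. The floor of 9 on mean signal left 2580 probes higher, 2307 probes lower and 1257 genes lower, with fewer probes tested, and medians of -0.40 for histones, 0.49 for BTB genes, 0.42 for FOX, SOX, KLF, SP and E2F factors, 0.50 for large ligases, 0.44 for Hippo genes, 0.49 for solute carriers, 0.51 for cadherins and their kin, 0.33 for glycan genes, 0.53 for hypoxia and 0.46 for reported targets. A fold of at least 1.5 left 1644 and 1778 probes and 1210 and 752 genes. The FOX to E2F median was 0.26 under cyclic loess, 0.25 under median scaling, 0.23 with array weights and 0.24 with the mean of probes. BTB genes read 0.23, 0.29 and 0.21 under median scaling, quantile normalization and the mean of probes, and Hippo genes 0.37 and 0.36 under the first pair and 0.35 with array weights. Histones read -0.25 with array weights, and under the mean of probes cadherins 0.16, glycan genes 0.21 and sterol and fatty acid genes 0.16. The cause was not tested.

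Without 1 array, genes higher ranged from 2507 to 2756 and lower from 1626 to 1834, and the medians from 0.25 to 0.31 (FOX to E2F), 0.33 to 0.42 (large ligases), 0.31 to 0.43 (Hippo), -0.31 to -0.24 (histones), 0.20 to 0.29 (glycan), 0.23 to 0.30 (BTB) and 0.25 to 0.33 (hypoxia). Signs turned under quantile normalization for EEF1A1 and RPL6 (-0.06), ATP5F1B (-0.07), COX4I1 (0.11) and COX5A (0.14). With the mean of probes they turned for ABLIM1 (-0.07), DICER1 (0.35), EXT2 (-0.05), RPL6 (-0.78), TUBA1A (-0.73), UBE2G1 (-0.56), ACLY (-0.17), ALDOA (-0.51), EEF1A1 (-0.06), EEF1B2 (-0.0004), ELOVL6 (-0.01), GSTM2 (-0.07), HS6ST2 (-0.08), MSMO1 (-0.15) and VBP1 (-0.003). COX5A, uncalled, read 0.03 under cyclic loess and from -0.05 to 0.03 without 1 array, above 0 without pull-down replicate 1 (0.01) or input replicate 2. Other uncalled genes turned too: EXT2 under cyclic loess (-0.004) and without 1 array (-0.16 to 0.22), EXT1 without 1 array (-0.07 to 0.23), and SMAD4 with array weights (0.06) and without 1 array (-0.15 to 0.07). Higher genes were 59.8% of calls, and 55.6% to 62.5% under other settings. Background correction from raw signals, a detection filter, a slide block and protein length were not run.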
